A study of Mus musculus with 4 samples.

Results

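Lrrc17, Akap5, 2700099C18Rik, Pbld1 and Gm5531 are 5 transcripts that stood among the deepest losses of RNA in mouse embryonic stem cells (ESCs) labelled Naa10 knockout (Naa10-KO). They were chosen on these same values, as rows with no 0 in any library and a deep fall in both Naa10-KO libraries, so their difference between genotypes is described here and not tested. Of 14099 named rows, 8 carried one of the 5 symbols. Lrrc17, Akap5, Pbld1 and Gm5531 had 1 row each and 2700099C18Rik had 4. One row per symbol, 5 in all, had no 0 and passed the filter on low values, which asked for at least 2 of the 4 libraries to reach 1 RPKM, the length- and depth-scaled read level of the deposited tables.

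The study sequenced poly-dT selected RNA of 2 wild-type (WT) and 2 Naa10-KO libraries, called biological replicates of each genotype. C57BL/6 females with 1 Naa10-deficient X chromosome (written Naa10-/X) had been mated with WT JF1 males, and ESCs were derived from the inner cell mass of the F1 blastocysts, so all 4 libraries share the C57BL/6-JF1 hybrid background and the WT cells were littermates. All were grown in N2B27 medium with the Mek inhibitor PD325901, the Gsk3 inhibitor Chir99021 and LIF, for 5 passages on irradiated embryonic fibroblast feeders and 5 passages without them. The labels do not say whether the libraries of a genotype are separate lines or cultures of 1 line, which sex the lines have, which bases of Naa10 are missing, or whether the protocol kept the strand. The p-values below therefore measure only the spread between these libraries.

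NatA, an N-terminal acetyltransferase, adds acetyl groups to the first residue of a large share of cellular proteins during their synthesis, and Naa10 is the subunit that carries out the reaction. Of the transcripts described here, Lrrc17 encodes a secreted leucine-rich repeat protein known from bone, where it restrains the formation of osteoclasts driven by the cytokine RANKL. Akap5 encodes an A-kinase anchoring protein, a scaffold that holds protein kinase A, the phosphatase calcineurin and protein kinase C close to receptors and channels at the plasma membrane. Pbld1 encodes a protein with a phenazine biosynthesis-like domain, whose human counterpart binds the TGF-beta receptor associated protein Strap. Gm5531 is listed by RefSeq under the current symbol Teddm1b, a member of a small family of transmembrane proteins first described in the epididymis. 2700099C18Rik is a transcribed pseudogene in RefSeq and so has no known protein product.

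The row that holds Naa10, joined in the tables with its neighbour Renbp, had 105 and 106 RPKM in WT against 28.9 and 34.4 in Naa10-KO. RPKM divides the reads of a transcript by its length in kilobases and by the library's mapped reads. The Naa10,Renbp row passed the test across all rows (limma log2 difference -1.71, SE 0.11, Benjamini-Hochberg adjusted p = 0.0342), in the direction of the labels. The call was lost with rows at 0 and small RNA rows left out (limma adjusted p = 0.0799) and without WT replicate 1 (0.367) or WT replicate 2 (0.356).

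Promoter sequences are shown for the 4 transcripts that RefSeq gives a window for, because the series concerns DNA methylation, which in mammals falls mainly on the dinucleotide CG. Each is the 250 bases before the annotated transcript start in GRCm38.p6, from RefSeq, 5′ to 3′, with every CG in capitals. The deposited values used another build (mm9), and methylation was not analysed here, so the counts of CG describe the reference sequence alone.
Lrrc17, chr5:21543277-21543526, plus strand: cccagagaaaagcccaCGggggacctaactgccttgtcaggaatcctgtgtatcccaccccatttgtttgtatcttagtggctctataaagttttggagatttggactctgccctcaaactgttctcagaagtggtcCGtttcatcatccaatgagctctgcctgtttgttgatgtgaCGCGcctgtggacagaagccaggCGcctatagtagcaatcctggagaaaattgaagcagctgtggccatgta
Akap5, chr12:76324641-76324890, plus strand: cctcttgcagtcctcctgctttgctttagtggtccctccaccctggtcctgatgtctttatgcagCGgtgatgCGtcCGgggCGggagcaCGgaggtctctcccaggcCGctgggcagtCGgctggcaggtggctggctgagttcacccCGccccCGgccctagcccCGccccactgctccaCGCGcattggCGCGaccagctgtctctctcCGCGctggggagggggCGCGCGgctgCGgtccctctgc
Gm5531 (Teddm1b), chr1:153874095-153874344, plus strand: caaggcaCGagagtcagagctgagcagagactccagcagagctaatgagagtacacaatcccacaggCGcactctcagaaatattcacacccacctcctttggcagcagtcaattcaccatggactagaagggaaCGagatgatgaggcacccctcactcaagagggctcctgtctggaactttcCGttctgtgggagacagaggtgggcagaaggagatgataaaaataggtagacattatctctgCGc
Pbld1, the downstream of 2 annotated starts, chr10:63061339-63061588, plus strand: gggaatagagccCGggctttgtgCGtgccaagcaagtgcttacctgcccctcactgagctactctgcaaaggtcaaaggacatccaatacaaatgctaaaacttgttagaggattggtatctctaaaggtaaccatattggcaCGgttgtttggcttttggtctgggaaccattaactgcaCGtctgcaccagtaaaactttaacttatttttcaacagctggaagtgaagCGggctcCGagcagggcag

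These windows differ in their density of CG. The Akap5 window held 20 CG and was 70% G or C, and 82.1% of the 32817 RefSeq windows of the same length held fewer CG. Lrrc17 and Gm5531 held 5 each and the downstream Pbld1 start held 6, close to the median of 6 over all windows, whose quartiles were 2 and 16. The upstream Pbld1 start, at chr10:63060463-63060712, held 5. A search on both strands found the TATA motif TATAAA in the Lrrc17 window, a motif in 12.4% of all windows. The CCAAT motif was in the Lrrc17, Akap5 and downstream Pbld1 windows, against 33.8% of all windows, and GGGCGG, the GC box, was in the Akap5 window, against 32.7%. CACGTG was in the upstream Pbld1 window (6.02% of all windows) and TGACGTCA in none of these (1.55%). The Gm5531 window held none of the 5 motifs searched. These are matches of letters, not binding sites.

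**Figure D1:**
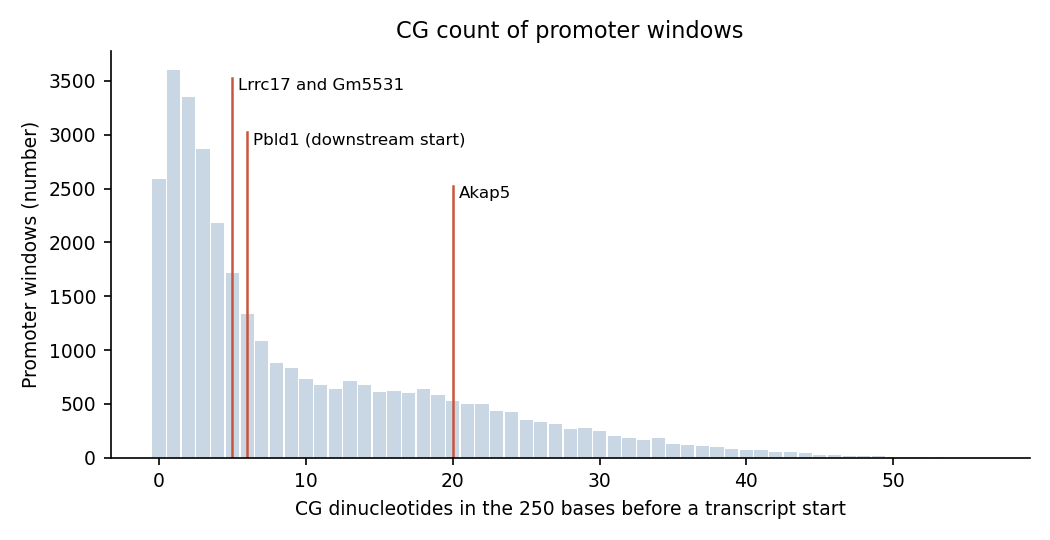
Number of RefSeq promoter windows (y axis) by the number of CG dinucleotides in the 250 bases before the transcript start (x axis), over 32817 mouse windows, with red lines at the values of the transcripts described here. Lrrc17 and Gm5531 at 5 CG and the downstream Pbld1 start at 6 lie at the middle of the distribution, and Akap5 at 20 lies above its upper quartile of 16.

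Lrrc17, the secreted leucine-rich repeat protein, gave 22.9 and 22.7 RPKM in its WT libraries, and the Naa10-KO libraries gave 0.863 and 0.628 RPKM. The WT libraries differed by 0.01 on the log2 scale, and the lower of them was 26.3 times the higher Naa10-KO library. The mean went from 22.8 ± 0.127 to 0.746 ± 0.166 RPKM (SD, n = 2 each), which is 3.27% of WT or 30.6-fold lower. In WT cells Lrrc17 was not a rare transcript: its level stood at the 70.3rd percentile of the 11912 rows past the filter. About 2279 and 2308 fragments lay behind the WT values and about 125 and 105 behind the Naa10-KO values, so the low values still rested on reads. These estimates assume fragments of 200 nt and a transcript of 2154 nt, a length taken from GENCODE and not from the submitters' annotation. Lrrc17 lies on chromosome 5 inside the span of Fbxl13 on the opposite strand, and no row named Fbxl13 was analysed here.

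Akap5, the kinase scaffold, had 5.71 and 5.68 RPKM in WT against 0.258 and 0.281 in Naa10-KO. Its libraries were the closest within each genotype of the 5 transcripts, with a gap of 0.01 in WT and 0.12 in Naa10-KO on the log2 scale. The mean of 5.70 ± 0.0255 RPKM became 0.270 ± 0.0160 RPKM (SD, n = 2 each), 4.73% of WT or 21.1-fold lower. Its WT level was moderate, at the 34.9th percentile, but the long transcript (6685 nt) put about 1886 and 1914 fragments behind the WT values and about 124 and 156 behind the Naa10-KO values. Akap5 lies on chromosome 12.

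The pseudogene 2700099C18Rik, on chromosome 17, was split over 4 rows that did not carry the same weight. Its row 3 had 2.24 and 2.53 RPKM in WT against 0.118 and 0.102 in Naa10-KO, 4.63% of WT or 21.6-fold lower. The WT mean of 2.38 ± 0.206 RPKM stood against 0.110 ± 0.0112 RPKM (SD, n = 2 each). Once the relative depth of the libraries was taken out, those 4 values stood in the whole-number ratio 13 to 15 to 1 to 1 (within 0.03 of whole numbers). If they are the fewest fragments that give this ratio, 28 WT fragments stood against 2 Naa10-KO fragments, and the Naa10-KO level was 4.60% of WT with an exact conditional binomial 95% interval of 0.531% to 18.3%, for counting error only. The true counts may be any common multiple of these.

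The other rows of 2700099C18Rik did not repeat the deep loss. Row 1 had 0.777 and 0.520 RPKM in WT against 0.130 and 0.208 in Naa10-KO, 26.1% of WT. With relative depth taken out in the same way, its WT and Naa10-KO values stood in the ratio 82 to 56 to 20 to 37. If these too are the fewest fragments, row 1 rested on more fragments than row 3 and showed a smaller fall. Row 2 had 0.625 and 0.129 RPKM in WT against 0.0904 and 0.117 in Naa10-KO, so its lower WT library was 1.10 times the higher Naa10-KO library. Rows 1 and 2 were below the filter, and in both each Naa10-KO value lay below each WT value. Row 4 was listed at 4.66 RPKM in WT replicate 2 and at 0 in the other 3 libraries, and its libraries did not separate by genotype. The tables do not say which part of the locus each row covers, and the RefSeq span of the gene overlaps Mettl4 and Gm1976.

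**Figure D2:**
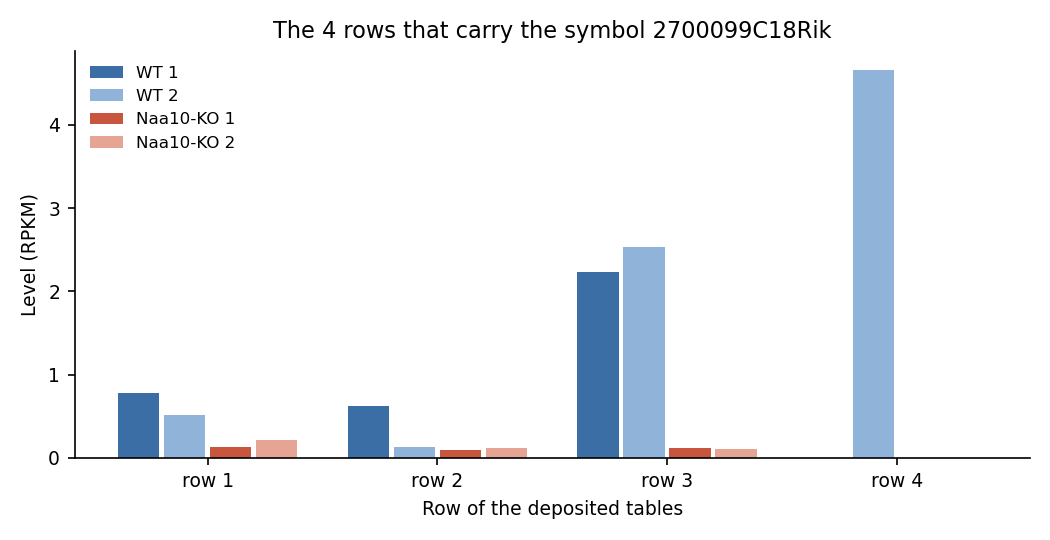
Level in RPKM (y axis) of the 4 rows named 2700099C18Rik (x axis, in table order), 1 bar per library. Row 3 drops from above 2 RPKM in both WT libraries to about 0.1 RPKM in both Naa10-KO libraries, rows 1 and 2 are below 1 RPKM throughout, and row 4 has a bar in WT replicate 2 alone.

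Gm5531, the predicted transmembrane protein gene on chromosome 1, had 5.37 and 5.65 RPKM in WT against 1.14 and 1.45 in Naa10-KO. The mean of 5.51 ± 0.202 RPKM became 1.30 ± 0.215 RPKM (SD, n = 2 each), 23.5% of WT or 4.25-fold lower. About 636 and 684 fragments lay behind the WT values and about 197 and 288 behind the Naa10-KO values. The groups were apart, with the lower WT library 3.71 times the higher Naa10-KO library. Teddm1a and Teddm2, its neighbours and relatives on the chromosome, had no row that was analysed here.

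Pbld1, on chromosome 10, was the most abundant of the 5, with 49.3 and 50.2 RPKM in WT, the 85.2nd percentile, and 13.6 and 16.2 RPKM in Naa10-KO. The mean of 49.7 ± 0.632 RPKM became 14.9 ± 1.82 RPKM (SD, n = 2 each), 29.9% of WT or 3.34-fold lower. Some 5527 and 5745 estimated fragments in WT and 2219 and 3049 in Naa10-KO make counting error small beside the gap between the Naa10-KO libraries. Its paralog Pbld2, the nearest measured gene upstream of it, had 3.02 and 1.36 RPKM in WT against 0 and 3.59 in Naa10-KO, with overlapping groups. Reads shared by such near copies can be divided between them by the counting, so the split between Pbld1 and Pbld2 is uncertain.

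The description "nearly lost" thus held for Lrrc17, Akap5 and row 3 of 2700099C18Rik, each under 5% of WT, and not for Gm5531 or Pbld1. In all 5 rows both Naa10-KO libraries lay below both WT libraries, as the choice of rows required, and that arrangement occurred in 34.9% of the 11912 rows tested (the reverse in 24.4%, either in 59.3%). The Naa10-KO libraries agreed to different degrees among the 5. Lrrc17 and Akap5 differed in opposite directions between Naa10-KO replicates 1 and 2, with Lrrc17 higher in replicate 1 and Akap5 in replicate 2. Gm5531 and Pbld1 were higher in replicate 2. A set of 11660 tested rows had no 0 and were not named only for small RNAs. Across these 11660 rows, the median log2 gap between replicates was 0.06 for WT and 0.29 for Naa10-KO. The Naa10-KO gaps of Lrrc17 (0.46) and Gm5531 (0.34) exceeded the Naa10-KO median, while those of Pbld1 (0.25), 2700099C18Rik (0.21) and Akap5 (0.12) did not.

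**Figure D3:**
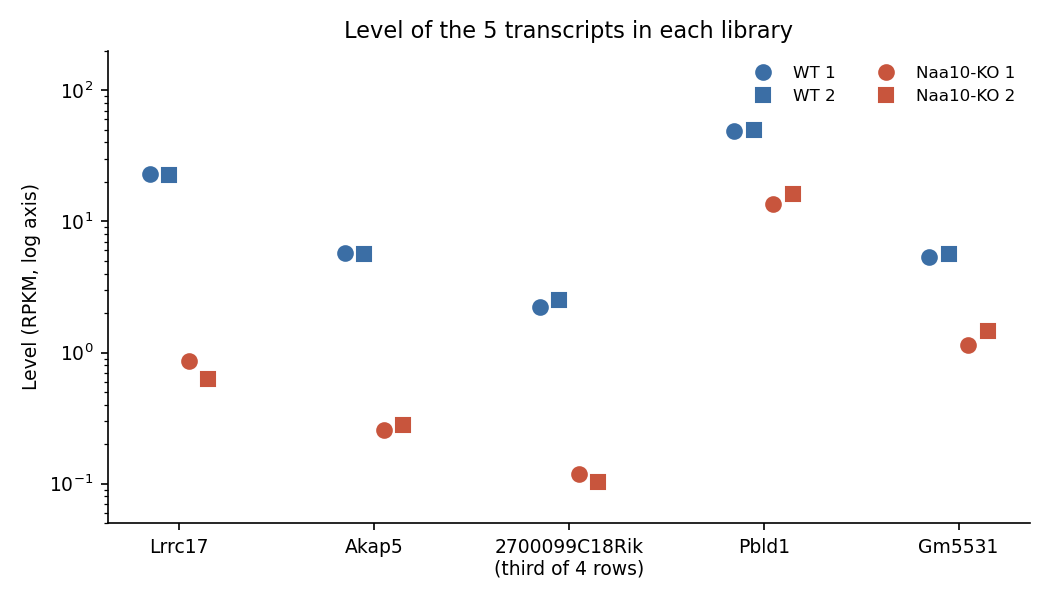
Level of the 5 transcripts in RPKM on a log axis (y axis), with 1 point per library, WT in blue and Naa10-KO in red, circles for replicate 1 and squares for replicate 2. Lrrc17, Akap5 and 2700099C18Rik (its row 3) lie more than 18-fold apart between genotypes, and Pbld1 and Gm5531 between 3-fold and 5-fold.

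The 5 transcripts did not form the top of an unbroken order. When the 11660 rows were ordered by the higher of their Naa10-KO libraries as a share of the WT mean, Lrrc17 was at rank 1 with 3.78%, Akap5 at rank 2 with 4.93% and 2700099C18Rik at rank 3 with 4.96%. The row at rank 4, 4930562C15Rik, had 1.58 and 1.62 RPKM in WT against 0.0514 and 0.0971 in Naa10-KO, or 6.07% by this measure. No other row had both Naa10-KO libraries under 10% of WT, and 162 rows had both under 50%. A wide step followed: Snhg11, a host transcript of small nucleolar RNAs, was at rank 5 with 16.6%, from 3.06 and 2.73 RPKM to 0.433 and 0.481 RPKM.

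Next in the order came Rhox10, an X-linked homeobox gene, at 20.2%, Gnrh1, the precursor of gonadotropin-releasing hormone, at 20.5%, and Atrnl1, an attractin-like gene, at 20.7%. Gnrh1 had 2.41 and 1.46 RPKM in WT against 0.158 and 0.396 in Naa10-KO, and its WT libraries were far less alike than those of the 5 transcripts. Gm5531 stood at rank 12 with 26.3%, between A230065H16Rik at 26.2% and Pla2g4c at 26.9%, and 8 rows outside the set lay above it. Pbld1 stood at rank 30 with 32.5%, between Lrrc16b at 32.5% and Cyp11a1 at 32.7%, and 25 rows outside the set lay above it. Among the 3769 rows at 20 RPKM or more in WT, a limit chosen after the values were seen, the order was Lrrc17, Hspa1a, Ifi27, Pbld1, Naa10,Renbp and Hspa1b.

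**Figure D4:**
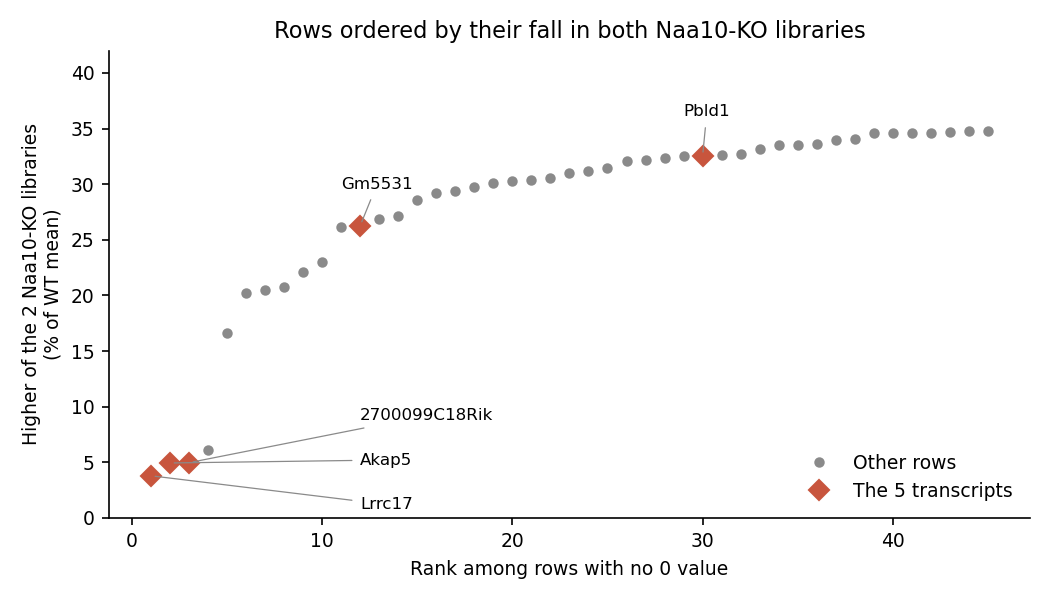
The higher Naa10-KO library as a percent of the WT mean (y axis) against rank (x axis) for the first 45 of the 11660 rows with no 0, with the 5 transcripts as red diamonds and other rows in grey. Lrrc17, Akap5 and 2700099C18Rik lie under 5%, a step separates ranks 4 and 5 (6.07% and 16.6%), and Gm5531 and Pbld1 lie among other rows at 26.3% and 32.5%.

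The rows with the most similar profile were found by Euclidean distance over the 4 libraries of log2 level relative to the WT mean, which is a description and rests on 4 points. For Akap5 the nearest row outside the set was 4930562C15Rik at a distance of 0.581, and the same row was nearest to 2700099C18Rik (0.808) and Lrrc17 (1.17). The next row for each was Gnrh1, at 2.28, 2.45 and 3.14. For Pbld1 the nearest was the Naa10,Renbp row at 0.0161, followed by the X-linked long noncoding RNA Firre at 0.0458. Distances cannot be ranked between transcripts, because more rows lie near the level of Pbld1 than near the deepest losses. Of the rows ordered above, 162 had both Naa10-KO libraries under 50% of WT, and 4 had both under 10%. The small distance to the Naa10,Renbp row thus shows a similar fall, and a link between Pbld1 and Naa10 was not tested. Firre had 9.66 and 9.82 RPKM in WT against 2.64 and 3.27 in Naa10-KO. For Gm5531 the nearest were 4930447C04Rik at 0.348 and Adrbk2, a G protein-coupled receptor kinase, at 0.349. Adrbk2 had 1.54 and 1.25 RPKM in WT against 0.288 and 0.426 in Naa10-KO.

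Rows next to the 5 transcripts on their chromosomes were compared as a measure the choice of rows did not use. By the planned definition of 3 RefSeq genes on each side plus overlapping genes, 12 rows were measured and 11 tested, and 1 passed the limma test with an adjusted p under 0.05, Hnrnph3. In all, 91 of the 11912 rows tested, or 0.764%, passed in either direction, of which 65 (0.546%) were lower and 26 (0.218%) were higher in Naa10-KO. Hnrnph3, an RNA-binding protein gene beside Pbld2 and near Pbld1, was at 20.6 and 19.6 RPKM in WT against 6.67 and 7.57 in Naa10-KO. That is 35.3% of WT (limma log2 difference -1.38, SE 0.11, adjusted p = 0.0418), lower in both Naa10-KO libraries. The call was lost without the filter on low values (adjusted p = 0.0557), with rows at 0 and small RNA rows left out (0.0799) and with the replicate number as a block (0.0978). It was also lost without WT replicate 1 (0.785) or WT replicate 2 (0.692).

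The direct neighbours of the 3 deepest losses did not share their scale. Fam185a, the nearest tested row before Lrrc17, had 3.57 and 3.41 RPKM in WT against 2.62 and 2.42 in Naa10-KO (72.3% of WT), and Armc10, the nearest after it, had 28.6 and 29.5 RPKM in WT against 28.1 and 33.4 in Naa10-KO. On chromosome 12, Mthfd1, an enzyme of folate metabolism before Akap5, had 65.4 and 64.3 RPKM in WT against 73.0 and 57.9 in Naa10-KO, and Zbtb25, a zinc finger gene after it, had 4.11 and 4.18 RPKM in WT against 3.89 and 4.97 in Naa10-KO. The groups of Armc10, Mthfd1 and Zbtb25 overlapped. Mettl4, a methyltransferase gene that overlaps 2700099C18Rik, had 6.06 and 5.67 RPKM in WT against 4.68 and 4.06 in Naa10-KO (74.6% of WT, limma adjusted p = 0.217). The row of the overlapping Gm1976 was at 90.0% of WT with overlapping groups. Glul, the glutamine synthetase gene after Gm5531, went the other way, from 84.9 and 84.7 RPKM to 158 and 109 RPKM (157% of WT, limma adjusted p = 0.20).

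Over a wider range, the 6 nearest measured rows on each side, a definition added after the values were seen, 50 of 55 rows were tested and Hnrnph3 again was the row that passed. Both Naa10-KO libraries lay below both WT libraries in 26 of the 50 and above in 7, against 34.9% and 24.4% of all rows tested, and the median Naa10-KO level was 85.2% of WT, against 96.7% over the 11660 rows with no 0. Neighbours of Pbld1 were lowest, with 7 of 12 apart and lower, 1 apart and higher, and a median of 71.8% of WT. Around it Rufy2 (53.2%), Slc25a16 (68.8%), Herc4 (69.2%), Dna2 (71.7%), Sirt1 (71.8%) and Dnajc12 (71.8%) were below WT, while Tet1 (116%) and Jmjd1c (129%) were not, and none of these 8 passed the test. The groups of Jmjd1c overlapped, with 31.2 and 31.5 RPKM in WT against 52.5 and 28.2 in Naa10-KO. Neighbours of Lrrc17 had a median of 87.3% (9 tested), those of Akap5 93.1% (12 tested), those of 2700099C18Rik 79.9% (6 tested) and those of Gm5531 111% (11 tested). The lowest of any neighbour, Hnrnph3 at 35.3%, stayed above the level of Pbld1 at 29.9%. Pbld2, which lies between them, was at 81.9% with overlapping groups.

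**Figure D5:**
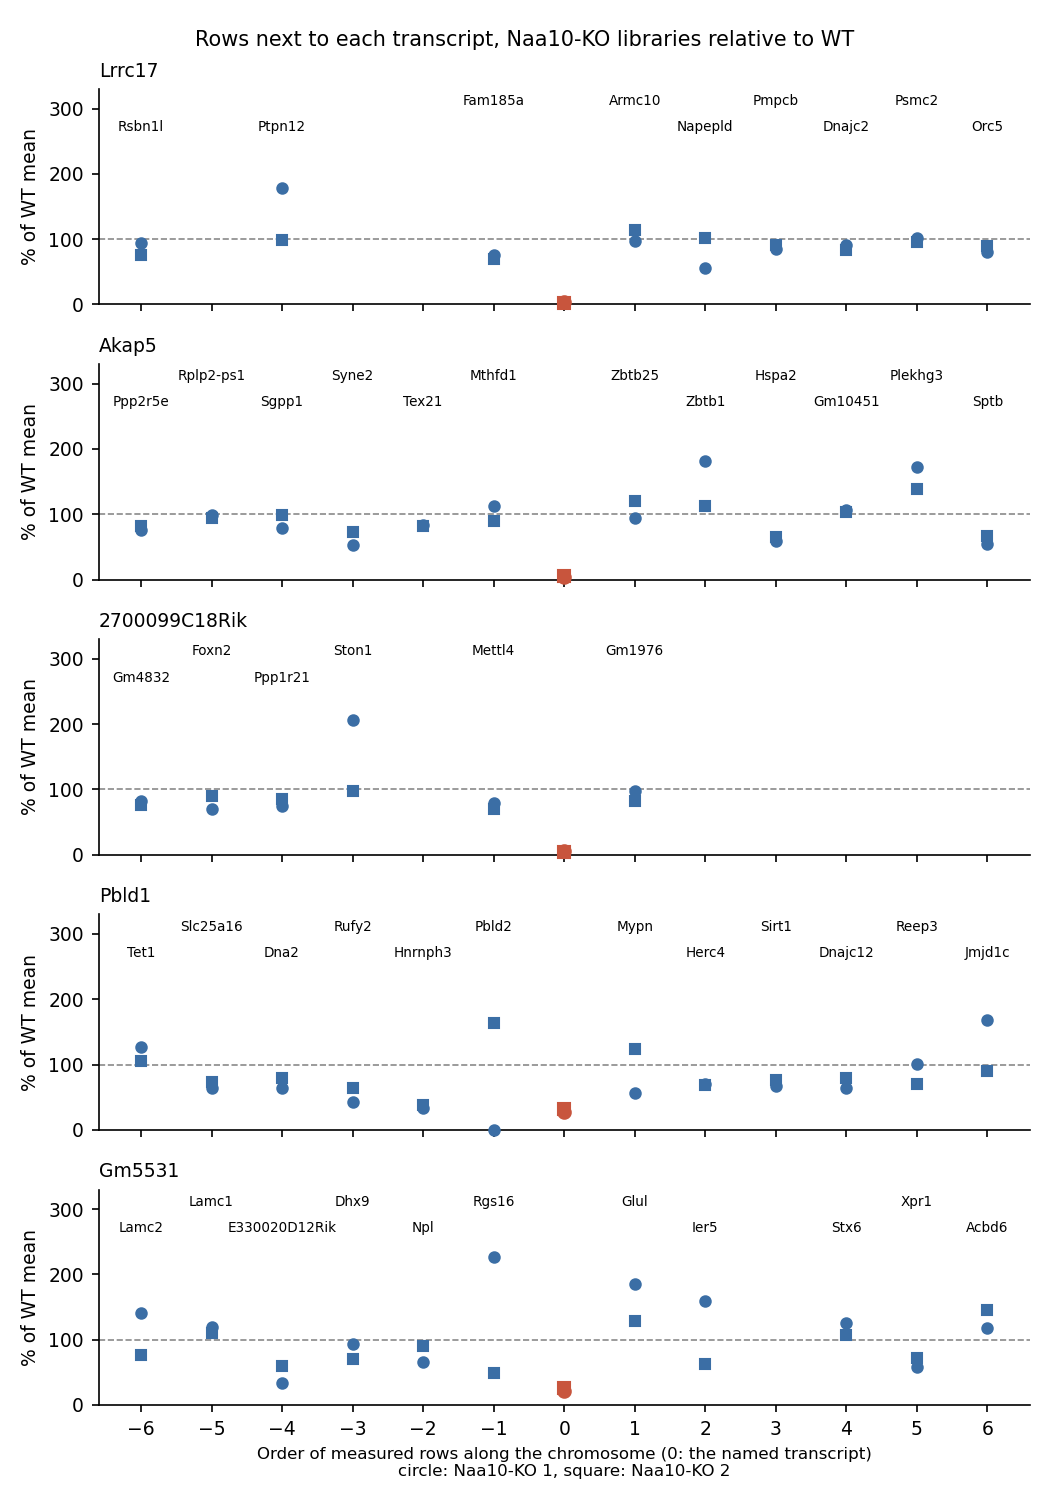
Naa10-KO level as a percent of the WT mean (y axis) for the tested rows among the 6 measured rows on each side of each transcript, in chromosome order (x axis), with circles for Naa10-KO replicate 1, squares for replicate 2, the named transcript in red at 0 and the dashed line at 100%. The red points lie below the blue points beside them in the panels of Lrrc17, Akap5 and 2700099C18Rik, and in the Pbld1 panel Hnrnph3 at 35.3% is close to Pbld1 at 29.9% (Pbld2 is listed at 0 in replicate 1).

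Relatives and known partners of Lrrc17, Akap5 and Pbld1 were read from 5 lists. No list was made for Gm5531 or 2700099C18Rik. None of the 76 tested rows passed the limma test, and 13 (17.1%) had an unadjusted p under 0.05, against 22.1% of all rows tested. Of the other A-kinase anchoring proteins, 10 rows were tested and 9 were below 0 on the log2 scale, against 57.3% of all rows tested. The median log2 difference was -0.06, the same as the -0.06 of all rows tested. Akap12, the most abundant, was at 159 and 160 RPKM in WT against 160 and 149 in Naa10-KO. Akap7 differed most, with 4.08 and 4.12 RPKM in WT against 2.08 and 3.41 in Naa10-KO (limma adjusted p = 0.293), followed by Akap11 with 13.6 and 12.4 against 10.2 and 8.66 RPKM (adjusted p = 0.179). At 66.9% and 72.5% of WT, both were far from the 4.73% of Akap5.

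The kinase, phosphatase, cyclase, receptor and transcription factor genes that Akap5 scaffolds or acts through, 30 tested rows, had a median log2 difference of -0.01. Of these, 8 (26.7%) were apart and lower and 3 (10%) apart and higher, against 34.9% and 24.4% of all rows tested. Prkaca, the main catalytic subunit of protein kinase A, was at 32.7 and 32.3 RPKM in WT against 29.2 and 37.1 in Naa10-KO. Ppp3cc, a calcineurin subunit, differed most in this list, from 3.10 and 2.30 RPKM to 0.682 and 1.60 RPKM (limma adjusted p = 0.209).

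The extracellular leucine-rich repeat genes, relatives of Lrrc17, gave 16 tested rows, of which 4 (25%) were apart and lower and 4 (25%) apart and higher, against 34.9% and 24.4% of all rows tested. Their median log2 difference was 0.35, but 0.59 in Naa10-KO replicate 1 and -0.23 in replicate 2, so its direction depended on the library. Bgn, a matrix proteoglycan, had 45.6 and 49.0 RPKM in WT against 185 and 38.7 in Naa10-KO. The 16 fibroblast markers, of which Lum and Dcn are also on this list, summed to 231 and 65.0 RPKM in the same Naa10-KO libraries, and their part in these levels was not tested. Omd, osteomodulin, a proteoglycan of bone matrix, had 32.8 and 33.9 RPKM in WT against 8.38 and 11.4 in Naa10-KO, 29.6% of WT (limma log2 difference -1.67, SE 0.16, adjusted p = 0.0610). Tsku, a secreted modulator of Wnt and BMP signals, had 4.60 and 4.29 RPKM in WT against 11.3 and 12.6 in Naa10-KO, 269% of WT (log2 difference 1.25, SE 0.12, adjusted p = 0.0537). Tsku passed the threshold when libraries were centred on their medians (0.0475) or quantile normalized (0.0450). In the RANKL axis, where Lrrc17 is known to act, 3 rows were tested, and Tnfsf11, RANKL itself, was low in every library, at 1.49 and 1.31 RPKM in WT against 2.02 and 1.52 in Naa10-KO (limma adjusted p = 0.467). Nfatc1, the transcription factor that RANKL induces, was at 122% of WT with overlapping groups (adjusted p = 0.636).

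For Pbld1 the list held Strap and the TGF-beta pathway, and its 18 tested rows had a median log2 difference of 0.18 (0.225 from replicate 1 of Naa10-KO alone, 0.13 from the other). Of these, 3 (16.7%) were apart and lower and 11 (61.1%) apart and higher, against 34.9% and 24.4% of all rows tested. Strap, the binding partner, was at 82.0 and 87.2 RPKM in WT against 99.4 and 90.2 in Naa10-KO (limma adjusted p = 0.347). Cdh2, N-cadherin, had 4.78 and 5.18 RPKM in WT against 19.3 and 9.10 in Naa10-KO, higher in replicate 1 (limma adjusted p = 0.179). Pbld1 itself was closer between those libraries, at 13.6 and 16.2 RPKM. Cdh1, E-cadherin, on the same list, was also higher, with 91.9 and 92.6 RPKM in WT against 125 and 129 in Naa10-KO (limma adjusted p = 0.0964). Smad2 and Smad4, which relay the TGF-beta signal, were at 100.5% and 113% of WT.

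The libraries also differed in depth and in the levels of cell type markers. Relative depth, read from the steps of low values, was 1, 1.02, 1.46 and 1.68 for WT replicates 1 and 2 and Naa10-KO replicates 1 and 2, or about 50900000 to 85600000 fragments, so the Naa10-KO libraries were the deeper ones. Summed over 12 rows of ESC markers, levels were 5046 and 5129 RPKM in WT against 4271 and 5194 in Naa10-KO. Of these rows, 3 were apart and higher and 1 apart and lower, and the row of Dppa5a and Ooep was the highest. The 16 fibroblast markers, for feeder cells, summed to 109 and 116 RPKM in WT and to 231 and 65.0 RPKM in Naa10-KO, with Thy1 highest, none at 0, 0 of 16 rows apart and higher and 2 apart and lower. Trophoblast markers (5 rows, 4 apart and higher, Eomes highest) summed to 6.63, 5.69, 15.3 and 7.88 RPKM, neural markers (4 rows, 2 apart and higher, Tubb3 highest) to 30.2, 32.1, 63.7 and 57.4 RPKM, and primitive endoderm markers (7 rows, 2 apart and higher, 1 apart and lower, Lama1 highest) to 23.7, 20.8, 18.2 and 23.4 RPKM. For comparison, 24.4% of all rows tested were apart and higher and 34.9% apart and lower. The marker counts include rows below the filter, such as Cdx2 (0.353 and 0.286 RPKM in WT) and Gata6 (0.634 and 0.410). The part of other cells in the levels of the 5 transcripts was not tested, and in bulk RNA fewer cells with a transcript cannot be told apart from less transcript per cell.

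As a check of the sex of the lines, Y-linked and Xist levels were read. Ddx3y had 0.754 and 0.992 RPKM in WT against 0.341 and 0.215 in Naa10-KO, and Eif2s3y had 0.482 and 0.705 against 0.0816 and 0.0223 RPKM. Uty had 0.463 and 0.448 against 0.230 and 0.115 RPKM. The 3 Y-linked rows were low in all 4 libraries and lower in Naa10-KO. Xist, the RNA of the inactive X chromosome, was at 0.506 and 0.531 RPKM in WT against 0.542 and 0.184 in Naa10-KO. Naa10 lies on the X chromosome, and in this cross a daughter receives an intact copy from her WT father. Embryos with no intact Naa10 would therefore be male, and how the low Y-linked levels relate to this was not tested. Whether the libraries hold cells of the same sex, and any part of this in the levels of the 5 transcripts, none of which lies on a sex chromosome, was not tested.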

How the data were processed

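Poly-dT selected RNA of 2 WT and 2 Naa10-KO mouse ESC libraries was sequenced on an Illumina HiSeq 2000 after sonication. The values are RPKM as deposited by the authors, in 1 table per library, per the file headers. Cufflinks and bedtools are named as tools and mm9 as the build, per the submitters' processing notes. Aligner, annotation and strand setting: not given in the sources used here. Of the rows, 14099 carry a gene symbol and 12937 blank rows were left out; 14065 were matched to RefSeq (GRCm38.p6) for names, chromosomes, gene order and overlap of gene spans, and of its coordinates those of the promoter windows are printed.

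The 5 transcripts, the gene lists and the neighbour definitions were chosen with earlier results of these data known. Levels were compared as means ± SD over 2 libraries. The filter (at least 2 libraries reaching 1 RPKM) left 11912 rows. On log2(RPKM + 1), a scale that understates the change of low rows, limma 3.58.1 (R 4.3.3) fitted genotype with a mean-variance trend, two-sided, and Benjamini-Hochberg adjusted p under 0.05 counted as called. Residual degrees of freedom were 2 and prior ones 1.94, and the script was checked on simulated data. The simulation gave every library the spread of the WT pair, so it did not cover the wider spread of the Naa10-KO pair. The test covers the whole table. The 5 transcripts are given without p because the same contrast chose them.

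RPKM hide the depth, so relative depth came from the steps of low values of rows up to 75 nt, where WT replicate 2 and Naa10-KO replicates 1 and 2 had the ratio in 13 of 22, 12 of 19 and 8 of 20 length classes. Totals assume fragments of 200 nt. Chi-square per gene of these estimates, over genes with 100 to 500 fragments, averaged 3.79 (median 0.838) between the WT libraries (1118 genes) and 56.4 (median 18.4) between the Naa10-KO libraries (1025 genes). For most genes the WT libraries thus lay much nearer to counting noise than the Naa10-KO libraries; both were kept, as the labels call them biological replicates. Named genes were the 5 transcripts, the Naa10 row, the 5 next rows in the order, the 2 most alike rows per transcript, per list the rows past the threshold or else the 2 with the largest difference, overlapping and nearest measured neighbours, the highest gene per marker list, Pbld2 and the sex check genes. Added after their values were seen were the rows beside Gm5531 and Pbld1 in the order, the wider neighbours of Pbld1 and the examples Akap12, Prkaca, Bgn, Strap, Cdh1, Smad2 and Smad4. Some rows this rule names are not reported here. Alternatives were another pseudocount, filter, scaling, trend or block, and each library left out. Python 3.11.15 with pandas 2.3.3 handled the tables.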

Additional observations from a re-analysis of the deposited data

How the results depend on the processing

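The Naa10-KO level relative to WT stayed within 2.75% to 3.78% for Lrrc17, 4.53% to 4.94% for Akap5, 4.30% to 4.96% for 2700099C18Rik, 27.3% to 32.5% for Pbld1 and 20.8% to 26.3% for Gm5531 under library scaling, geometric means and leaving out any library. The count of rows past the limma threshold was less stable. It was 26 higher and 65 lower as reported, 16 and 24 without the filter on low values, 17 and 27 with the replicate block, and 0 and 0 with rows at 0 and small RNA rows left out (11660 rows, of which 2624 had an unadjusted p under 0.05). With rows of a mean of 5 RPKM or more, 42 were lower. Leaving out 1 library gave 5 to 2820 higher and 7 to 4261 lower rows, the low counts with a WT library removed and the high ones with a Naa10-KO library removed, where the lone library is assumed to vary like the other genotype. The pathway lists went from 0 rows to 1 (Tsku) with median-centred or quantile-normalized libraries, and ranged from 0 to 47 with 1 library left out. The call of Hnrnph3, 1 row among the neighbours by either definition, went to 0 without the filter, with rows at 0 and small RNA rows left out, and with the replicate block; with 1 library left out, the neighbours by the RefSeq definition gave 0 to 8 and the wider set 0 to 38. The cause of these changes was not tested. Replicate numbers are shared by the genotypes without any label that pairs them, and deviations of same-numbered libraries had a correlation of -0.13 over 11768 rows, so the replicate block is given as a setting and not as a pairing.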

Other observations

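The heat shock genes Hspa1a and Hspa1b lay among the abundant rows with the deepest differences, as named in the order above, and were chosen after their values were seen. Hspa1a had 29.7 and 32.7 RPKM in WT against 9.28 and 3.12 in Naa10-KO (limma log2 difference -2.31, SE 0.48, adjusted p = 0.134), and its near-identical copy Hspa1b had 30.6 and 34.1 against 10.8 and 4.04 RPKM (limma log2 difference -2.11, SE 0.45, adjusted p = 0.136). Reads of these copies can be divided between them by the counting. Both were lower in both Naa10-KO libraries, and their Naa10-KO libraries differed more from each other than those of Pbld1 or Gm5531.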
